A study of Drosophila melanogaster with 6 samples.

Results

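A set of 10 genes of chitin synthesis and of the tracheal matrix were followed in wing imaginal discs of kdm5 mutant and w1118 larvae of Drosophila. They are mmy, kkv, knk, serp, verm, Gasp, obst-A, pio, btl and trh, and a probe set counted as a member when the platform annotation gave it exactly 1 gene and that gene was one of these. By this rule 9 of the 10 genes were measured, by 11 of 18769 probe sets, and the array as a whole covered 11982 genes in the same way. No single-gene probe set was found for trh, so the gene was not analysed here. Discs were dissected at 96 h AED, in the third larval instar, from larvae of the strain given as kdm510424 (kdm5 mutant) and from w1118 larvae (WT). Each genotype had 3 biological replicates of about 60 discs, hybridised to 1 Drosophila Genome 2.0 array each. Kdm5 (also called lid) encodes a demethylase of histone H3 lysine 4. The nature of the allele, its zygosity and the sex of the larvae were not given by the labels, and w1118 is a separate stock, so the mutation and the strain background cannot be told apart.

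The arrays fitted their labels. Kdm5 itself read 4.67, 3.70 and 4.49 in mutant discs, against 10.09, 10.15 and 9.98 in w1118 discs, on the log2 signal scale of the deposited values. The wing disc genes nub, vg and ap, which specify the wing and its dorsal compartment, averaged between 10.96 and 12.003 in both genotypes, though vg fell by 0.18 ± 0.05 (SE, limma adjusted p = 0.0347). Of the 4 measured disc epithelium markers 2 fell and none rose, beside 11.9% of all genes lower and 9.76% higher at an adjusted p under 0.05. Besides vg, ptc fell, the Hedgehog receptor gene, at 5.03 ± 0.05 in mutant discs and 5.68 ± 0.08 in w1118 discs (SD, n = 3 each, limma adjusted p = 0.000362). Array medians lay between 4.42 and 4.45, and arrays correlated across probe sets at 0.998 to 0.999 inside a genotype, and at 0.989 to 0.990 for a mutant with a w1118 array. No label says that replicates came from separate crosses, so the p-values reflect only how far these samples spread, which may be technical. The number of arrays, 3 per genotype, limits the precision of every value.

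Chitin is a polymer of N-acetylglucosamine that is spun out at the apical surface of epidermal and tracheal cells. A cytoplasmic pathway makes the activated sugar, a membrane enzyme links it into chains, and secreted proteins then protect, deacetylate and bind the chains as the matrix takes shape. In the tracheal tubes of the fly embryo such a matrix fills the lumen for a time and sets tube length and width. A tracheal branch lies on the wing disc of the larva, and the disc epithelium itself secretes cuticle when it differentiates.

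In kdm5 mutant discs serp and verm, genes of chitin deacetylases, rose, and the precursor enzyme gene mmy and the chitin-binding protein gene Gasp fell by small amounts. For kkv, knk, obst-A, pio and btl no difference passed the test. In counts, 4 of the 11 member probe sets passed, 2 higher and 2 lower (limma, adjusted p under 0.05 with Benjamini-Hochberg adjustment over all probe sets), where 18.3% of all probe sets passed, 8.49% higher and 9.84% lower. With the arrays centred on hybridization spike-in controls, which moved the median change of all probe sets to 0.19, the split was 8 higher and 0 lower, where 38.5% of all probe sets were called. With polyadenylated spike-in controls, which moved it to 0.08, the split was 4 higher and 0 lower, where 15.6% of all probe sets were called. Only serp changed by more than 2-fold, a size that 2.56% of all probe sets reached together with the adjusted p, 1% in the higher direction. The median log2 change of the member probe sets was 0.12, beside 0.01 over all probe sets. In 6 of the 11 the arrays of the genotypes did not overlap, 3 with the mutant higher and 3 with it lower, beside 36.1% of all probe sets. Of the 11, 10 had a mean above 4.44, the median level over the whole array. Fitted among only the probe sets above the median level, 6 of these 10 were called, 3 higher and 3 lower. There 43% of all probe sets tested were called, so the 18.3% above is a low yardstick for bright probe sets.

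**Figure D1:**
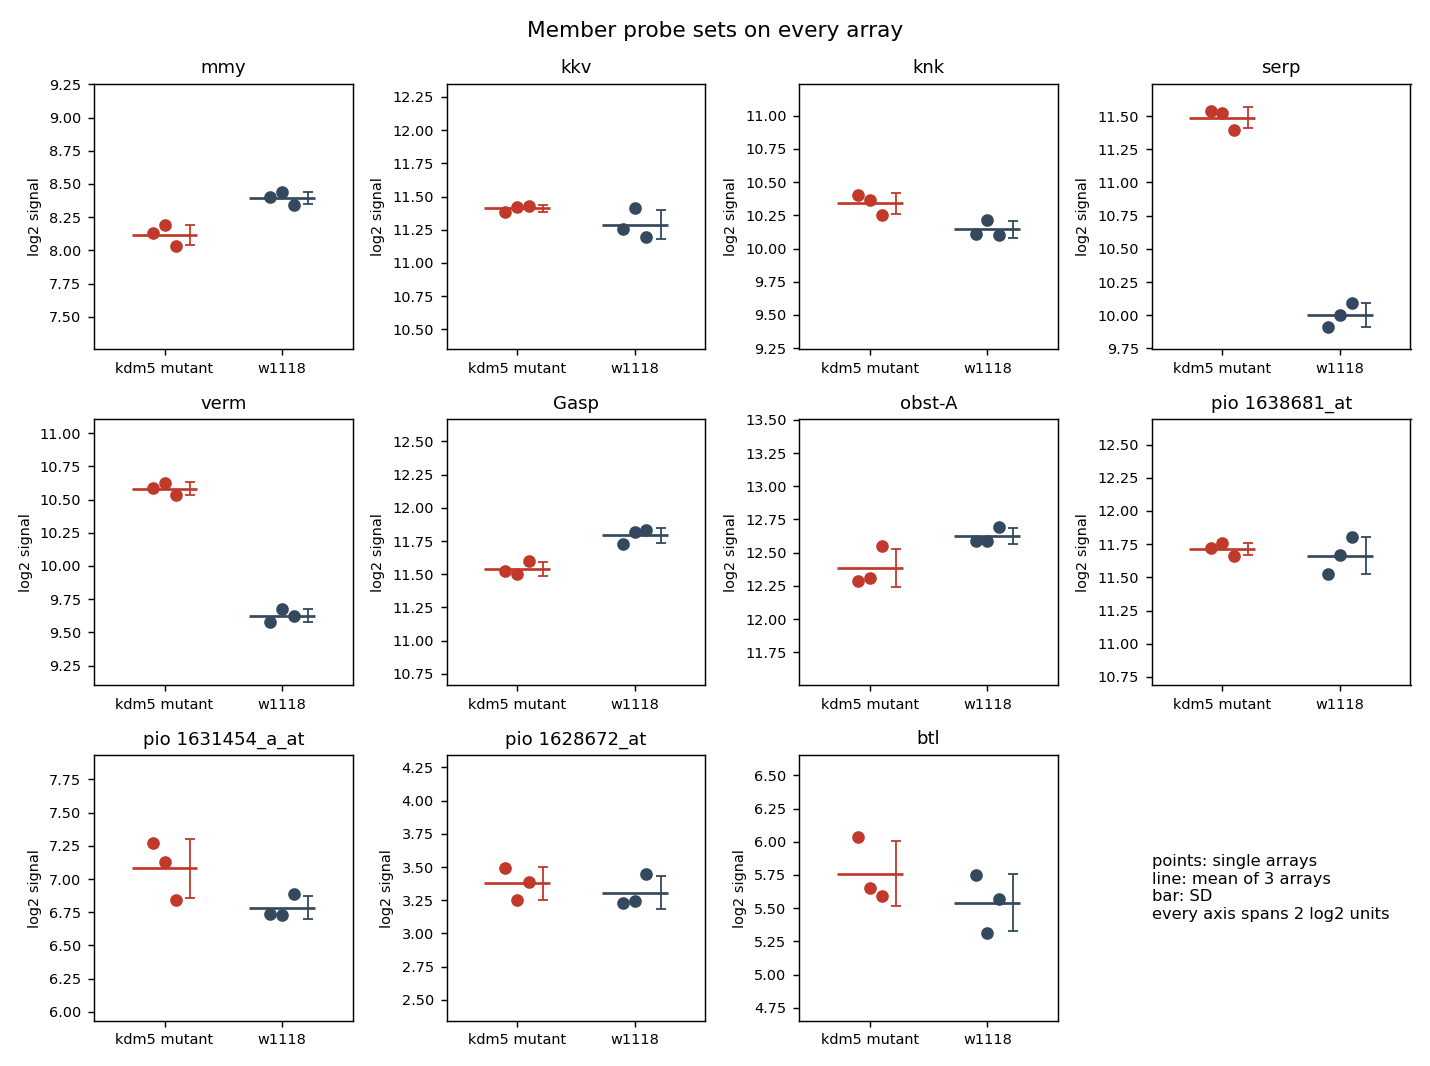
Deposited log2 signal of the 11 member probe sets on each array, kdm5 mutant at left and w1118 at right of every panel, with points for single arrays, a line for the mean of 3 arrays and a bar for the SD. All axes span 2 log2 units; serp and verm show gaps of 1.30 and 0.86 between the genotypes, and in the other panels the groups lie close or overlap.

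mmy encodes the UDP-N-acetylglucosamine pyrophosphorylase, the enzyme of the last step to the activated sugar, which also feeds protein glycosylation. It read 8.13, 8.19 and 8.03 in mutant discs, against 8.40, 8.44 and 8.34 in w1118 discs. Every mutant array lay below every w1118 array, by at least 0.16. The means were 8.12 ± 0.08 in mutant discs and 8.39 ± 0.05 in w1118 discs (SD, n = 3 each), which is a change of -0.28 ± 0.06 on the log2 scale (SE; limma, adjusted p = 0.0163) or a level 1.21-fold lower. The call was lost without mutant replicate 1 (limma adjusted p = 0.0514), w1118 replicate 1 (0.0550) or w1118 replicate 2 (0.0537), and with the arrays centred on spike-in controls (0.369 on the hybridization and 0.0979 on the polyadenylated ones), while the change was negative under each of the 16 alternatives.

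Of the other genes of the synthesis route, 6 of 8 were measured, and 1 fell and none rose, beside 21.7% of all genes called. Gnpnat, which acetylates glucosamine-6-phosphate upstream of mmy, read 10.86, 10.90 and 10.82 in mutant discs, against 11.001, 11.06 and 11.05 in w1118 discs. It changed by -0.18 ± 0.05 (SE, adjusted p = 0.0478, limma). This call was lost when any single array was left out (limma adjusted p 0.0803 to 0.125), with the 3 probe sets of the gene averaged (0.267), with median centring (0.0609), array weights (0.0565) and polyadenylated spike-in centring (0.365), and it disappeared with hybridization spike-in centring, where the change was 0.00 (0.979). Gfat1 and Gfat2, which commit fructose-6-phosphate to amino sugar synthesis, changed by 0.00 ± 0.05 and 0.02 ± 0.05. The list's median was 0.01.

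kkv encodes the chitin synthase of epidermis and trachea. It read 11.38, 11.42 and 11.43 in mutant discs, against 11.26, 11.41 and 11.20 in w1118 discs. The genotypes overlapped through w1118 replicate 2, and the change of 0.12 ± 0.07 was not called (SE, adjusted p = 0.267, limma), except under hybridization spike-in centring (0.0264). Its 95% interval ran from -0.03 to 0.28, so a rise or fall of the size of serp lay outside it. The second chitin synthase gene, Chs2, known from the gut, read 4.01 ± 0.07 in mutant discs and 3.94 ± 0.04 in w1118 discs (SD, n = 3 each), below the median level of the array in both. reb and exp, whose products promote chitin deposition together with the synthase, changed by -0.31 ± 0.11 and 0.16 ± 0.05 and were not called (SE, limma adjusted p = 0.0994 and 0.0740).

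knk encodes a membrane-anchored protein that protects new chitin and orders its fibres. It read 10.40, 10.37 and 10.25 in mutant discs, against 10.11, 10.22 and 10.10 in w1118 discs. The 2 groups did not overlap, but the gap was 0.03, under the spread within either of them. The change of 0.20 ± 0.06 was not called (SE, adjusted p = 0.0726, limma, 95% interval 0.05 to 0.34). It was called under 5 of the 16 alternatives, among them both spike-in centrings (limma adjusted p = 0.00934 and 0.0328), array weights (0.0423) and a trended, robust variance prior (0.00658), within a range of 0.00658 to 0.204 over all of them.

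serp (serpentine) and verm (vermiform) encode secreted chitin deacetylases, which remove acetyl groups from chitin chains and, in embryonic trachea, keep tubes from growing too long. serp read 11.54, 11.52 and 11.40 in mutant discs, against 9.91, 10.003 and 10.09 in w1118 discs. verm read 10.59, 10.63 and 10.53 in mutant discs, against 9.58, 9.67 and 9.63 in w1118 discs. For both genes every mutant array lay above every w1118 array, and the gap of 1.30 for serp and 0.86 for verm was several times the spread within a genotype, at most 0.18 and 0.10.

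The mean of serp was 11.49 ± 0.08 in mutant discs and 10.002 ± 0.09 in w1118 discs (SD, n = 3 each). It rose by 1.48 ± 0.07 on the log2 scale (SE; limma, adjusted p = 1.19e-05), or 2.80-fold. verm averaged 10.58 ± 0.05 in mutant discs and 9.63 ± 0.05 in w1118 discs (SD, n = 3 each) and rose by 0.96 ± 0.05 (SE, adjusted p = 2.95e-05, limma), 1.94-fold. These changes were larger in size than those of 98.8% and 97.2% of all probe sets. An exact two-sided permutation test gave p = 0.1 for each, the smallest value that 3 arrays against 3 allow. Both stayed called under all 16 alternatives, serp between 1.44 and 1.66 and verm between 0.93 and 1.14.

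The log2 change of the serp probe set was larger than that of the verm probe set. Whether both probe sets respond alike to RNA level was not tested. Taken within each array, the difference between their log2 values was 0.53 ± 0.05 larger in mutant than in w1118 discs (SE from the spread of 3 arrays per genotype), without overlap between the genotypes (exact two-sided permutation test, p = 0.1, the smallest possible). The genes lie side by side on chromosome arm 3L in RefSeq's gene order (assembly GCF_000001215.4 Release 6), with no other gene starting between them. Their nearest measured neighbours outwards did not rise. Gbeta76C, a G protein beta subunit gene next to verm, changed by 0.00 ± 0.05 (SE, limma adjusted p = 0.996), and SREBP, a lipid synthesis regulator beyond serp with 6 genes starting between that have no single-gene probe set, fell by 0.49 ± 0.05 (SE, limma adjusted p = 0.000653).

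**Figure D2:**
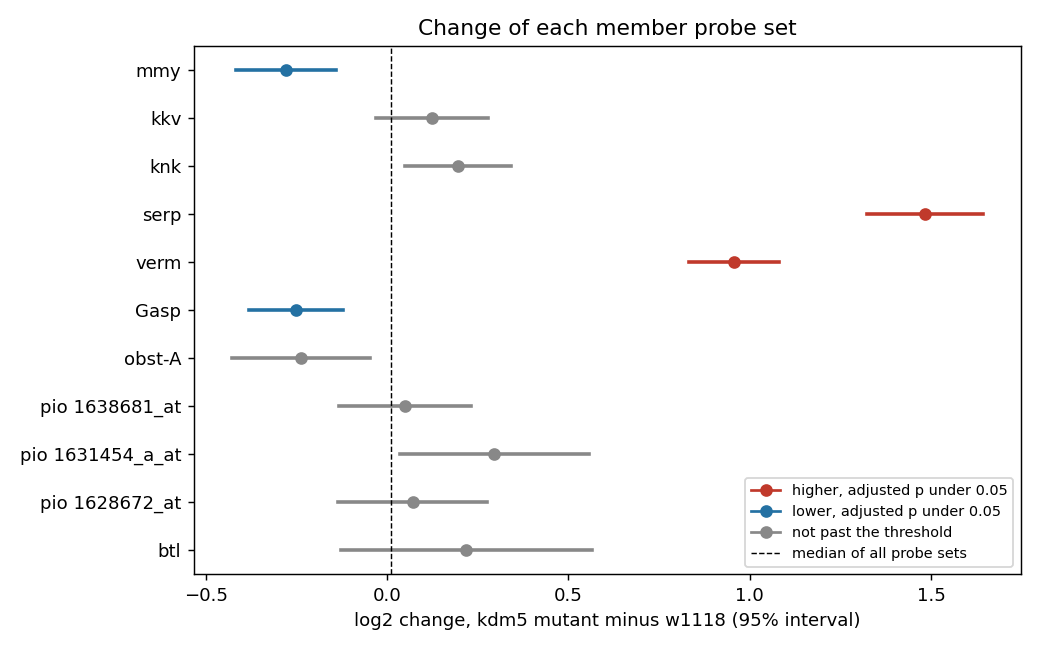
Log2 change of each member probe set, kdm5 mutant minus w1118, with its 95% interval from limma, coloured by whether the adjusted p was under 0.05, and a dashed line at the median of all probe sets. serp at 1.48 and verm at 0.96 stand apart from the other probe sets, which lie between -0.28 and 0.30.

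The deacetylase and chitin-binding relatives of the members did not follow serp and verm as a group. All 13 listed relatives were measured, and 1 rose and 3 fell, beside 9.76% of all genes higher and 11.9% lower, with a median of -0.01. Cda5, another chitin deacetylase gene, read 5.22, 5.22 and 5.43 in mutant discs, against 6.24, 6.27 and 6.26 in w1118 discs. It fell by 0.96 ± 0.07 (SE, adjusted p = 9.45e-05, limma), and the mutant arrays lay far below the w1118 ones. Cda4, a further deacetylase gene, changed by -0.10 ± 0.06 (SE, adjusted p = 0.317, limma), and Cda9 and ChLD3 lay below the median level of the array in both genotypes.

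Gasp and obst-A encode secreted proteins with chitin-binding domains of the peritrophin type, which organise the luminal and cuticular chitin. Gasp read 11.52, 11.50 and 11.60 in mutant discs, against 11.73, 11.82 and 11.83 in w1118 discs. The genotypes did not overlap, with a gap of 0.13, slightly above the spread within each. Gasp averaged 11.54 ± 0.05 in mutant discs and 11.79 ± 0.06 in w1118 discs (SD, n = 3 each), a change of -0.25 ± 0.06 (SE, adjusted p = 0.0186, limma), 1.19-fold lower. Its call was lost without mutant replicates 1 or 2 or w1118 replicates 2 or 3 (limma adjusted p 0.0573 to 0.0774) and under hybridization and polyadenylated spike-in centring (0.419 and 0.157).

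obst-A read 12.29, 12.31 and 12.55 in mutant discs, against 12.59, 12.59 and 12.69 in w1118 discs. Mutant replicate 3 lay within 0.03 of the lowest w1118 array, and the other mutant arrays lay lower. The change of -0.24 ± 0.08 was not called (SE, adjusted p = 0.0894, limma, 95% interval -0.43 to -0.05), but it was called without mutant replicate 3, at -0.32 (0.0187), with array weights (0.0484) and among only the probe sets above the median level (0.0471). Gasp and obst-A differed in their change by 0.01 ± 0.06 (SE, exact two-sided permutation p = 0.9). This does not show that they changed alike.

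Among the other genes of this family, obst-B rose by 0.28 ± 0.05, with 10.19 ± 0.04 in mutant discs and 9.91 ± 0.06 in w1118 discs (SD, n = 3 each; adjusted p = 0.0105, limma). Peritrophin-A, the next gene after obst-A in gene order, read 5.9998, 5.85 and 6.13 in mutant discs, against 6.58, 6.26 and 6.54 in w1118 discs, a fall of 0.46 ± 0.11 (SE, adjusted p = 0.0233, limma). Its call was lost without mutant replicates 1 or 2 or w1118 replicates 1 or 3 (limma adjusted p 0.0659 to 0.0774), with quantile normalization (0.0529) and with polyadenylated spike-in centring (0.0572). obst-E read 5.58, 5.48 and 5.60 in mutant discs, against 6.43, 6.92 and 5.89 in w1118 discs, with the spread on the w1118 side. It changed by -0.86 ± 0.23 (SE, adjusted p = 0.0400, limma), by -0.41 with its probe sets averaged (0.0589), lost its call with quantile normalization (0.0671) and the trended, robust prior (0.0709), and was called without w1118 replicate 3 but without no other array (0.0042 to 0.112). obst-F to obst-J lay below the median level of the array in both genotypes, and none of them was called.

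pio encodes a zona pellucida domain protein that links the apical membrane of tracheal cells to the matrix of the lumen. Its 3 probe sets were read one by one, because the labels do not say which part of the gene each one covers. The brightest, 1638681_at, read 11.72, 11.76 and 11.66 in mutant discs, against 11.52, 11.67 and 11.80 in w1118 discs. The groups overlapped and the change was 0.05 ± 0.08 (SE, adjusted p = 0.739, limma, 95% interval -0.13 to 0.23).

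A second pio probe set, 1631454_a_at, read 7.27, 7.13 and 6.84 in mutant discs, against 6.74, 6.73 and 6.88 in w1118 discs. Mutant replicate 3 lay inside the w1118 range, and the change of 0.30 ± 0.11 was not called (SE, adjusted p = 0.120, limma). It was called at 0.42 without that array (0.0197), at 0.36 with quantile normalization (0.0441), with a trended, robust prior (0.0473) and under both spike-in centrings (0.00837 and 0.0329). The third, 1628672_at, lay below the median level of the array, at 3.38 ± 0.12 in mutant discs and 3.31 ± 0.12 in w1118 discs (SD, n = 3 each). This probe set and the brightest one were called only under hybridization spike-in centring (limma adjusted p = 0.0364 and 0.0433). The first 2 probe sets differed in their change by 0.25 ± 0.12 (SE, exact two-sided permutation p = 0.2), so unequal change of the pio probe sets was not shown.

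**Figure D3:**
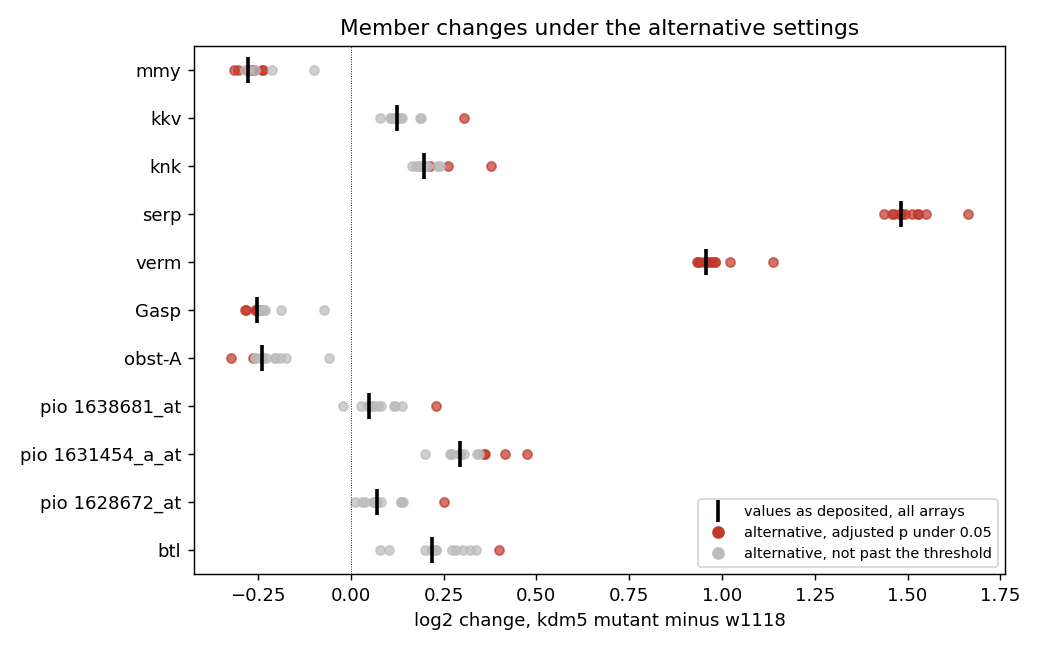
Log2 change, kdm5 mutant minus w1118, of each member probe set with the deposited values and all arrays (black bar) and under each alternative setting (circles, red where adjusted p was under 0.05). serp and verm stay between 0.93 and 1.66 and red throughout, and the others lie between -0.32 and 0.48 with calls that come and go.

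Other zona pellucida domain genes moved in both directions. The list as drawn up held f (forked), an actin-bundling protein gene that has no such domain. Without f, 8 genes were measured, of which 2 rose and 3 fell, with a median of -0.11. With f the count was 3 higher and 3 lower of 9, beside 21.7% of all genes called. pot (papillote), which ties epidermal cells to cuticle, read 11.80, 11.81 and 11.83 in mutant discs, against 11.47, 11.53 and 11.51 in w1118 discs, and rose by 0.31 ± 0.05 (SE, adjusted p = 0.00365, limma). tyn (trynity) read 8.41, 8.46 and 8.28 in mutant discs, against 8.78, 8.91 and 9.07 in w1118 discs, and fell by 0.54 ± 0.09 (SE, adjusted p = 0.00516, limma).

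mey (morpheyus) rose by 0.44 ± 0.09, while qsm (quasimodo) fell by 0.20 ± 0.05 and zye by 0.66 ± 0.15 (SE, limma adjusted p = 0.0147, 0.0414 and 0.0214). zye lay below the median level in mutant discs, at 3.79 ± 0.16, and at 4.46 ± 0.29 in w1118 discs (SD, n = 3 each), so the size of its change depends on the background of the array. mey lost its call without mutant replicates 1 or 2 or w1118 replicates 1 or 2 (highest limma adjusted p 0.0562), qsm without mutant replicates 2 or 3 or any w1118 array (0.0890 to 0.125) and under median and both spike-in centrings (0.0585 to 0.810), and zye without mutant replicates 2 or 3 or w1118 replicates 1 or 2 (0.0679 to 0.0727). f rose by 0.48 ± 0.11 (SE, limma adjusted p = 0.0220), a call lost without mutant replicate 2 (0.0644). It too lay near the median level, at 4.65 ± 0.15 in mutant discs and 4.17 ± 0.18 in w1118 discs (SD, n = 3 each). Its lowest change under the alternatives was 0.27.

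btl (breathless) encodes the FGF receptor that guides tracheal branching, and trh (trachealess) the transcription factor that specifies tracheal cells. btl read 6.04, 5.65 and 5.59 in mutant discs, against 5.75, 5.31 and 5.57 in w1118 discs. The groups overlapped, with mutant replicate 1 highest and w1118 replicate 2 lowest. The change of 0.22 ± 0.15 was not called (SE, adjusted p = 0.386, limma), except under hybridization spike-in centring (0.0429), and its 95% interval of -0.13 to 0.56 was the widest of the 11.

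Among 12 other genes of tracheal regulation and FGF signalling 9 were measured, and 2 fell and none rose (22.2%, beside 21.7% of all genes called), with a median of 0.01. kni, a transcription factor gene of tracheal branches and wing veins, fell by 0.24 ± 0.06, and salm, of the dorsal trunk and the central wing, fell by 0.21 ± 0.06 (SE, limma adjusted p = 0.0334 and 0.0390). Both are expressed in the wing epithelium too, and both calls were lost under the spike-in centrings (0.162 to 0.737). kni also lost its call without mutant replicates 2 or 3 or w1118 replicates 2 or 3 (limma adjusted p 0.0804 to 0.119), and salm without mutant replicates 1 or 2 or any w1118 array (0.0782 to 0.127). bnl, the FGF ligand of btl, changed by -0.13 ± 0.06, and sty, an inhibitor of FGF and EGF receptor signalling, by 0.16 ± 0.05, neither past the threshold (SE, limma adjusted p = 0.162 and 0.0741).

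Chitin-degrading enzymes and their relatives were the last group. Of 18 measured genes (chitinases, imaginal disc growth factors and hexosaminidases), 2 rose and none fell, which is 11.1%, beside 21.7% of all genes called. The list's median was 0.00. Cht5, a chitinase of the moult, read 9.32, 9.35 and 9.15 in mutant discs, against 8.64, 8.49 and 8.78 in w1118 discs, with all mutant arrays higher. It rose by 0.63 ± 0.09 (SE, adjusted p = 0.00276, limma). Idgf2, a chitinase-like growth factor without enzymatic activity, rose by 0.38 ± 0.08 (SE, limma adjusted p = 0.0136), a call lost without mutant replicates 2 or 3 (0.0506 and 0.0518). Idgf6, another chitinase-like growth factor, read 6.504, 6.34 and 5.94 in mutant discs, against 7.34, 6.59 and 6.99 in w1118 discs. All mutant arrays were lower, but its change of -0.71 ± 0.21, larger in size than that of Cht5, was not called (SE, adjusted p = 0.0571, limma). Hexo2, a hexosaminidase gene, changed by -0.31 ± 0.13, also without overlap and not called (SE, adjusted p = 0.157, limma). Over the 5 lists together 15 of 55 measured genes passed, 6 higher and 9 lower, which is 27.3%, beside 21.7% of all genes. Of the 55, 39 had a mean above the median level of the array. Fitted among only the probe sets above the median level, 17 list genes were called, 7 higher and 10 lower. There 43% of all probe sets tested were called, so the 21.7% is a low yardstick for bright genes. Under the hybridization spike-in centring, where 38.5% of all probe sets were called, the split was 20 higher and 6 lower. Under the polyadenylated one, where 15.6% were called, it was 7 higher and 5 lower. These shares are of probe sets and the list counts are of genes, so they are not on the same footing as the 21.7%.

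**Figure D4:**
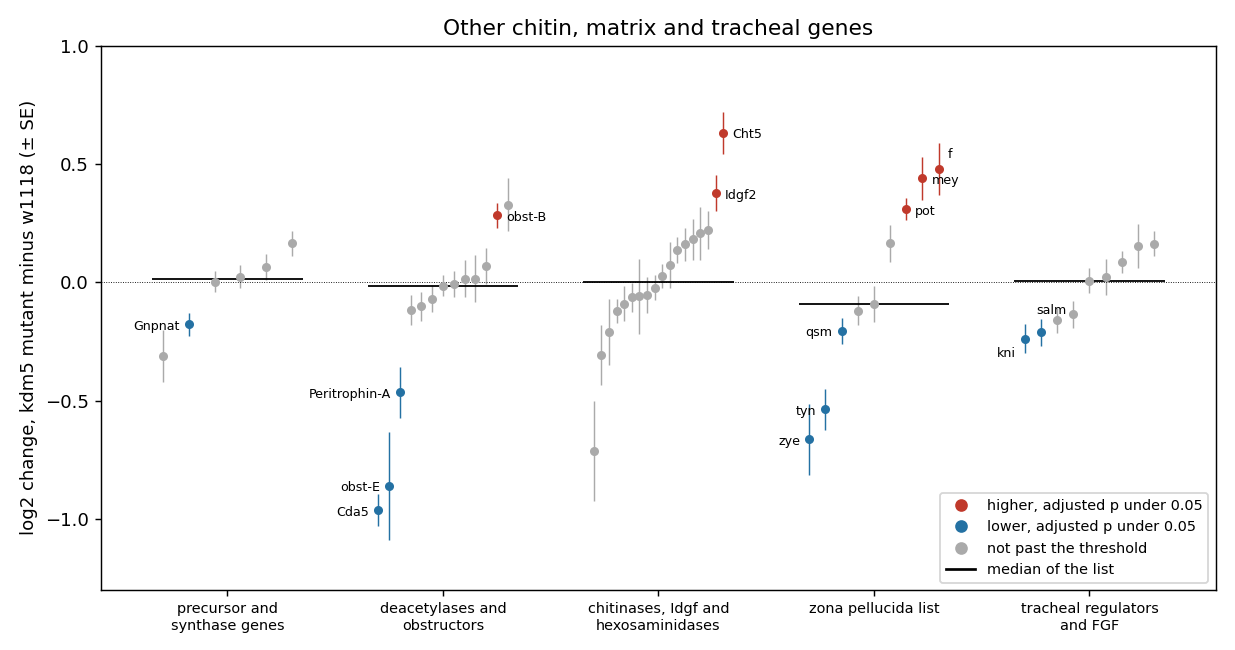
Log2 change, kdm5 mutant minus w1118, of the 55 measured genes of 5 lists around the members, each with its SE from limma, in order of size within a list, with genes past an adjusted p of 0.05 coloured and named and a line at the list's median. List medians lie between -0.09 and 0.01, and called genes run from Cda5 at -0.96 to Cht5 at 0.63.

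Among tissues that can adhere to dissected discs, the markers of salivary gland, fat body and muscle moved together with genotype. Over all genes, 9.76% were called higher and 11.9% lower. All 5 salivary gland markers fell, and the log2 of their summed signal ran from 9.46 to 9.59 in mutant discs and from 11.92 to 13.12 in w1118 discs. All 4 measured fat body markers fell, with 7.89 to 8.17 in mutant discs and 9.70 to 11.09 in w1118 discs, and all 4 measured muscle markers fell, with 8.04 to 8.43 in mutant discs and 9.31 to 9.74 in w1118 discs. In these whole-disc samples fewer cells of a type and less RNA per cell cannot be told apart, and the part of these tissues in the member changes was not tested. All discs were taken at 96 h AED, and whether larvae of both genotypes were equally far in development was not tested. Of the 5 haemocyte markers 1 rose and 1 fell, with 7.85 to 8.34 in mutant discs and 7.98 to 8.38 in w1118 discs. Of the 5 measured myoblast markers 1, Ama, rose and 4 were not called. The log2 of their summed signal was 12.82 to 12.89 in mutant discs and 12.52 to 12.62 in w1118 discs. This sum came mostly from Ama, which averaged 12.58 in mutant discs and 12.22 in w1118 discs. twi and Him changed by -0.11 and -0.27, and zfh1 and htl by 0.15 and 0.16.

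Tracheal markers did not move together. Of 8 listed, 6 were measured, 5 of them members. serp and verm rose, Gasp fell and btl, pio and uif were not called, beside 9.76% of all genes higher and 11.9% lower. The summed signal of these markers is given next. Their summed signal, which includes serp and verm, was 13.42 to 13.46 in mutant discs and 13.04 to 13.21 in w1118 discs. serp averaged 11.49 in mutant and 10.002 in w1118 discs, and verm 10.58 and 9.63. In the same order Gasp averaged 11.54 and 11.79, pio 11.71 and 11.66, uif 8.50 and 8.36, and btl 5.76 and 5.54. A sum without serp and verm was not computed, so the higher sum does not show more signal of the other tracheal markers. uif, a transmembrane protein gene of tracheal and other epithelial cells that is no member, changed by 0.14 ± 0.07 (SE, adjusted p = 0.273, limma).

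**Figure D5:**
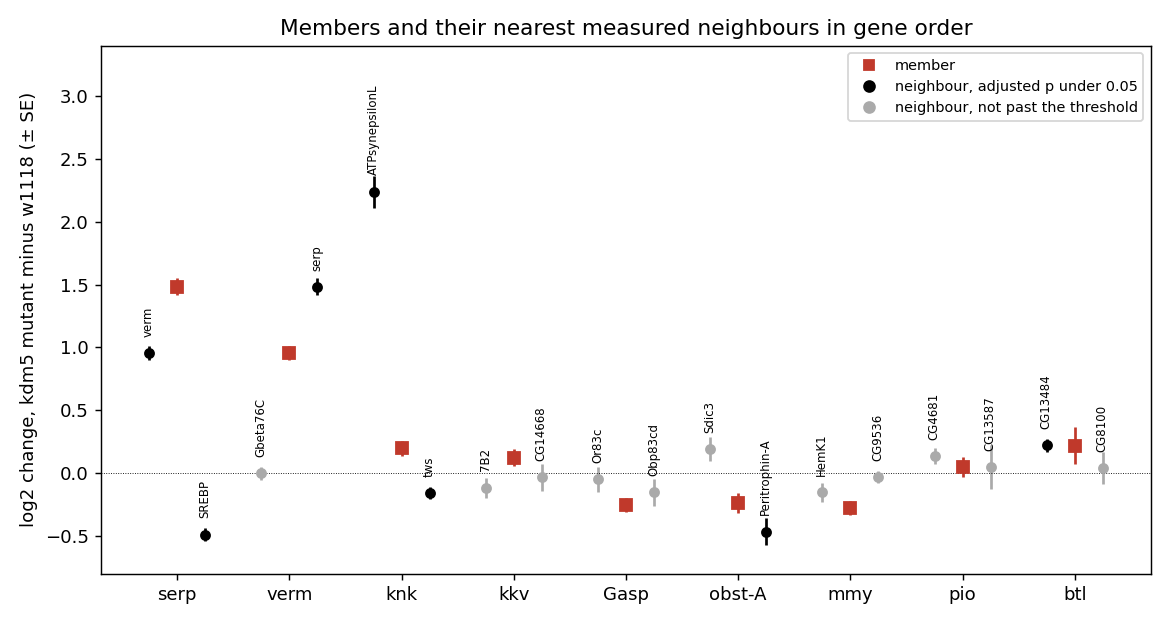
Log2 change, kdm5 mutant minus w1118, with SE from limma, of each measured member (red squares) and of the nearest gene on either side with a single-gene probe set (circles, black where adjusted p was under 0.05). serp and verm are each other's neighbour. Of the 16 neighbours that are no member, 2 rose, 3 fell and 11 were not called, beside 9.76% of all genes higher and 11.9% lower.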

How the data were processed

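The authors deposited normalized log2 signal per probe set, 1 value per array. Per the submitters' processing notes GCOS, Affymetrix Expression Console, PLIER and GCRMA were used, with no versions or order; it is not stated which of them made the log2 values, and scanner files were not used, so no detection calls were at hand. Of 18952 probe sets 183 manufacturer's controls were left out. GEO's platform annotation named 1 gene for 13647, several for 402 and none for 4720. For 13544 of the 13647 the symbol was taken through the gene identifier from assembly GCF_000001215.4 Release 6, whether or not it differed. Gene order was read from that assembly, and no coordinates are given. A gene is represented by its brightest probe set.

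Every probe set was tested with limma 3.58.1 in R 4.3.3 (lmFit, eBayes, genotype only, two-sided, Benjamini-Hochberg over 18769 probe sets, threshold 0.05, 4 residual degrees of freedom), and the code was tested on simulated data. Called means an adjusted p under 0.05. Changes are mutant minus w1118. A group's n is 3.

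The members, the lists and the alternatives were chosen with earlier results of these data known. The text names Kdm5, every member probe set, called genes of the 5 lists, nearest measured neighbours and cell type markers; other list genes given with values were picked after their values were seen. The 5 lists held 65 names, 1 of them a second name of Cht10, and 9 genes had no single-gene probe set. Alternatives were a replicate term, 4 scalings, a robust prior with trend, weights for arrays, leaving out dim probe sets, 2 ways to join probe sets, and each array left out.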

Additional observations from a re-analysis of the deposited data

How the results depend on the processing

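The called rises of serp and verm held under all 16 alternatives, as did the calls of Cda5, obst-B, Cht5, tyn and pot among the 15 called genes of the lists. Without 1 array, 2 to 6 member probe sets were called, 2 to 3 higher and 0 to 3 lower, and 5 to 11 list genes, 3 to 6 higher and 2 to 5 lower, where 12.4% to 14.9% of all probe sets were called in place of 18.3%. Shares here and below are of probe sets, while list counts are of genes, of which 21.7% were called with all arrays. Member calls numbered 2 without mutant replicate 1 or w1118 replicate 2, and 6 without mutant replicate 3. List calls numbered 5 without mutant replicate 2, 8 without w1118 replicate 1 and 9 without mutant replicate 3. Centred on hybridization spike-in controls, all 8 called member probe sets were higher and 0 lower, and 26 list genes were called, 20 of them higher, where 38.5% of all probe sets were called. That centring moved the median change of all probe sets to 0.19; relative to it mmy read -0.29, Gasp -0.26, serp 1.47 and verm 0.95. Gnpnat then changed by 0.0027 in place of -0.18. Centred on polyadenylated spike-in controls, 4 member probe sets were called higher and 0 lower, and 5 list genes lower, with a median change of 0.08 over all probe sets and 15.6% of them called. With the trended, robust prior 4 member probe sets and 10 list genes were called higher, where 23.4% of all probe sets were called. The pio probe set 1638681_at changed by -0.021 without w1118 replicate 1, and by up to 0.118 without w1118 replicate 3, and was not called in either. For samples that share a number, deviations from the genotype mean correlated at -0.07, -0.03 and -0.18. Samples of unlike number were not compared, so these values do not show whether the numbers pair samples. The labels state no shared batch or day, so the replicate number was used only in an alternative. With it as a block 4 member probe sets were called, as without it, and 5 list genes were lower, where 13.3% of all probe sets were called. The block ended the calls of Gnpnat, obst-E, f, qsm, kni and salm (limma adjusted p 0.0587 to 0.109). The filter on dim probe sets left no value for f, zye and pio 1628672_at. No detection call was at hand, so changes near or below the median level are the least certain.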

Other observations

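Neighbouring genes of the members were read for their own values. Of the 16 that are no member 5 were called, beside 21.7% of all genes. ATPsynepsilonL, next to knk in gene order with no gene starting between, read 9.95 ± 0.26 in mutant discs and 7.71 ± 0.08 in w1118 discs (SD, n = 3 each) and rose by 2.24 ± 0.13 (SE, adjusted p = 3.20e-05, limma), while knk was not called. tws, on the other side of knk, fell by 0.16 ± 0.05 (SE, limma adjusted p = 0.0497). CG13484, before btl, rose by 0.22 ± 0.05 (SE, limma adjusted p = 0.0238). The 2 neighbours of kkv, Gasp, mmy and pio were not called, and CG14668 overlaps kkv in the gene table.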
